A study of Mus musculus with 12 samples.

Results

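The cytosolic ribosomal protein genes are the genes for the proteins of the ribosome that translates nuclear-encoded messages. They were taken from the deposited table by name and type: protein-coding genes named Rpl or Rps with a number, with or without a final a, x or y, together with Rplp0, Rplp1, Rplp2 and Rpsa. The rule found 76 of 54838 rows, 46 of the large subunit and 30 of the small subunit. They lie on 19 chromosomes, 4 of them on X. All 76 had counts in each of the 12 libraries, the lowest being 7 counts, and all 76 were tested. The rule leaves out, among others, Fau, whose ribosomal protein is made as a fusion with a ubiquitin-like protein, and Rps3a1. The rule itself uses names and types, not measured values.

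Total RNA of mouse liver was sequenced in 12 libraries, in 3 groups of 4 that the labels name CTL, DM and DMH without spelling them out. By its title the series is about a red Chlamydomonas reinhardtii, a green alga, with much protoporphyrin IX and its anti-diabetic effect in liver. The sources used here do not give strain, genotype, age, sex, the agent or the group that received it. No label ties a library to an animal of its own, so each p-value measures the spread between libraries and that spread may be technical. In a piece of tissue, fewer cells of a type and less RNA per cell cannot be told apart.

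A ribosome holds 1 copy of most of its proteins, and the small subunit reads the message while the large subunit joins the amino acids and passes the chain out through its exit tunnel. The messages of most mammalian ribosomal proteins begin with a run of pyrimidines at the capped end, the 5′ terminal oligopyrimidine (TOP) motif, through which mTORC1 and LARP1 control their translation. In liver, ribosomes serve the bulk synthesis of plasma proteins. Mammalian genomes also hold many processed pseudogenes copied from these messages, and reads from a message and its copies are hard to separate.

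Pyrimidine runs near a transcription start can be read in the promoter sequences that RefSeq gives for GRCm38.p6. These cover 250 bases before and 50 after a start and matched 56 of the 76 genes with 66 starts. Such a run need not begin at the capped end, so it was not taken as a TOP motif. That of Rps15a, 10 bases long, begins at -15 and lies wholly before the annotated start. A run of at least 8 pyrimidines within 15 bases of the start was present at 45.5% of these starts, against 17.6% of all 32851 starts in the table. The windows printed here run from 30 bases before to 30 bases after the start on the strand of the gene, with that run in capitals. The first set belongs to genes that were lower in DMH than in CTL. The run is 18 bases long for Rpl35 and 10 for Rplp2, Rps6 and Rps15a. The start printed for Rps3 has no run of at least 8, and no other start of Rps3 was examined.
Rplp2, chr7:141447621-141447680, plus strand: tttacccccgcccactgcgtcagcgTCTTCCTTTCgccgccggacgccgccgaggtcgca
Rps6, chr4:86857338-86857397, minus strand: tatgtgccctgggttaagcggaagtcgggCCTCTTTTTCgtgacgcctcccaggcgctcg
Rpl35, chr2:39005102-39005161, minus strand: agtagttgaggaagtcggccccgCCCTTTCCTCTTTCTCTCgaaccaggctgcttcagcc
Rps15a, chr7:118116118-118116177, minus strand: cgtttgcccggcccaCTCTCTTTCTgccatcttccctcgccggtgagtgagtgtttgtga
Rps3, chr7:99483680-99483739, minus strand: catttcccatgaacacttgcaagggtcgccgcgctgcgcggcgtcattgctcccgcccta

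The second set belongs to genes whose own row did not pass the test and had a log2 fold change above 0 in the same comparison. Their windows hold runs of the same kind, except that of Rpl10.
Rpl15, chr14:18270957-18271016, minus strand: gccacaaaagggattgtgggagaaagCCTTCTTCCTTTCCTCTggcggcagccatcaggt
Rpl28, chr7:4792935-4792994, plus strand: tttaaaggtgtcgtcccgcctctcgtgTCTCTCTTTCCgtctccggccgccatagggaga
Rps27, chr3:90213619-90213678, minus strand: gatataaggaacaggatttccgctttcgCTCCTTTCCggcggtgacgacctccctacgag
Rpl10, chrX:74270786-74270845, plus strand: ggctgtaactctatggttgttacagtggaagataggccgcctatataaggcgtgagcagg

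Over all matched genes the run was found in 14 of the 26 genes called lower in DMH against CTL and in 15 of the 30 not called. Other motifs were searched on both strands of the whole window of 250 and 50 bases. CTCTTTCC, which can lie within a pyrimidine run, was at 19.7% of the members' starts against 3.12% of all starts. CCGGAAG, the core that ETS factors bind, was at 36.4% against 8.86%, AAGATGG, a YY1 core, at 16.7% against 6.34%, and GGGCGG, an Sp1 box, at 60.6% against 35.7%. TATAAA was at 9.09% against 13.6%. A match is a description of the letters and no evidence of binding.

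Library totals ran from 13430122 to 17038017 counts. Genes of the mitochondrial genome held 7.88% to 23.5% of each CTL library, 18.7% to 33.7% of each DM and 22.5% to 37.6% of each DMH library, and this share moves with the groups and with the share of the ribosomal protein genes. The summed level of 8 hepatocyte markers was 51892 to 67511 CPM (counts scaled to a common library total) in CTL, 39129 to 49735 in DM and 30877 to 46126 in DMH. Summed Kupffer cell markers (12 genes) were at 411 to 920, 79.6 to 216 and 134 to 497 CPM, summed B and plasma cell markers (7 genes) at 153 to 240, 16.4 to 77.1 and 26.4 to 39.7, and summed neutrophil markers (6 genes) at 7.92 to 329, 2.05 to 6.03 and 0.772 to 14.4. In DMH against CTL, 2 of 8 hepatocyte, 1 of 12 Kupffer, 1 of 6 tested B and plasma cell and 0 of 4 tested neutrophil markers passed the test used for the members, all as lower. Over all tested genes, 8.15% were lower and 7.25% higher, so the Kupffer cell share is near that over all genes. None of these 4 lists had a gene at 0 in all libraries. In the other lists no gene passed in DMH against CTL. Their median log2 fold changes were -0.63 for endothelial, -0.41 for T and NK cell and -0.30 for erythroid markers. Those of stellate and cholangiocyte markers were 0.07 and 0.08. The part of any of these cell types in the results below was not tested. Because the extraction text names retinas, 6 photoreceptor genes were checked, of which Prph2, Crx and Rcvrn were at 0 in all 12 libraries.

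The row of a ribosomal protein gene holds only part of the reads that match its message. A median of 92.6% of the 25-base words of a member's coding sequence also occur in another annotated gene, and 70 of the 76 members share over 50% of them. Among those below 50% are Rpl8 at 11.8%, Rps3 at 24.5%, Rpl4 at 48.0% and Rps19 at 48.9%, and Rpl41 stands at that limit. In all, 455 rows, 12 of them protein-coding, have at least 50% of their own words within a member's transcripts and are called copy rows here. By this rule 72 members have at least 1. The rule can also take in a small gene that lies within a member's transcript and is no copy of its message. The only copy row of Rps3 averaged 0.201 CPM, the same as Snord15b, which overlaps Rps3. A member's own row held a median of 30.9% of the counts of itself and its copy rows together. It held under 10% for 22 members and at least 50% for 27, and for 49 members the copies outweighed the own row. No source used here tells how the counting divided reads between the gene and its copies, so the value of a member with heavy copies is uncertain, and so is that of the 37 members that share exonic bases with another gene.

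Levels are given first per length, as the deposited FPKM, which scale a gene's count by a length and by the library total. Rplp1, a protein of the acidic stalk, was highest with a mean over 12 libraries of 567 FPKM, followed by Rps15 at 380, Rpl8 at 149 and Rps14 at 143, and Rpl36 at 124 was also among the 6 highest. The lowest were Rps13 at 0.276 FPKM, Rpl9 at 0.309, Rps27 at 0.849, Rpl12 at 1.32, Rps23 at 1.36 and Rpl36a at 1.57. From Rplp1 to Rps13 the listed levels differ 2053-fold. The 6 lowest have their own row at 1.18% to 6.69% of own and copy counts. The length behind the FPKM runs from 383 to 11869 bases over the members, far beyond the coding length for some. Length enters this order through the scaling, and the part of the copies in it was not tested. In CTL, Rplp1 was at 1157, 911, 782 and 627 FPKM in the 4 libraries, in DM at 578, 330, 560 and 451, and in DMH at 219, 368, 298 and 521. All DM and DMH libraries lay below the lowest CTL library. Rps15 was at 470 to 562 FPKM in CTL, 223 to 387 in DM and 214 to 397 in DMH, again without overlap with CTL. Rps13 was at 0.0746 to 0.432 FPKM in CTL, 0.0535 to 0.312 in DM and 0.0692 to 0.762 in DMH, with wide overlap.

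Together, the 76 rows held a mean of 0.855% ± 0.137 (SD, n = 4) of a CTL library, 0.541% ± 0.129 of a DM library and 0.451% ± 0.0983 of a DMH library. The CTL libraries stood at 0.975%, 0.948%, 0.822% and 0.676%, the DM libraries at 0.589%, 0.388%, 0.690% and 0.497%, and the DMH libraries at 0.369%, 0.475%, 0.379% and 0.580%. CTL4 was the lowest of its group and lay just below DM3, while all DMH libraries were below all CTL libraries. With the copy rows added the means were 2.31%, 1.52% and 1.23%. As a share of the counts outside the mitochondrial genome and its nuclear copies, the own rows took 1.11% ± 0.0533, 0.837% ± 0.0975 and 0.814% ± 0.106, and CTL then lay apart from both other groups.

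**Figure D1:**
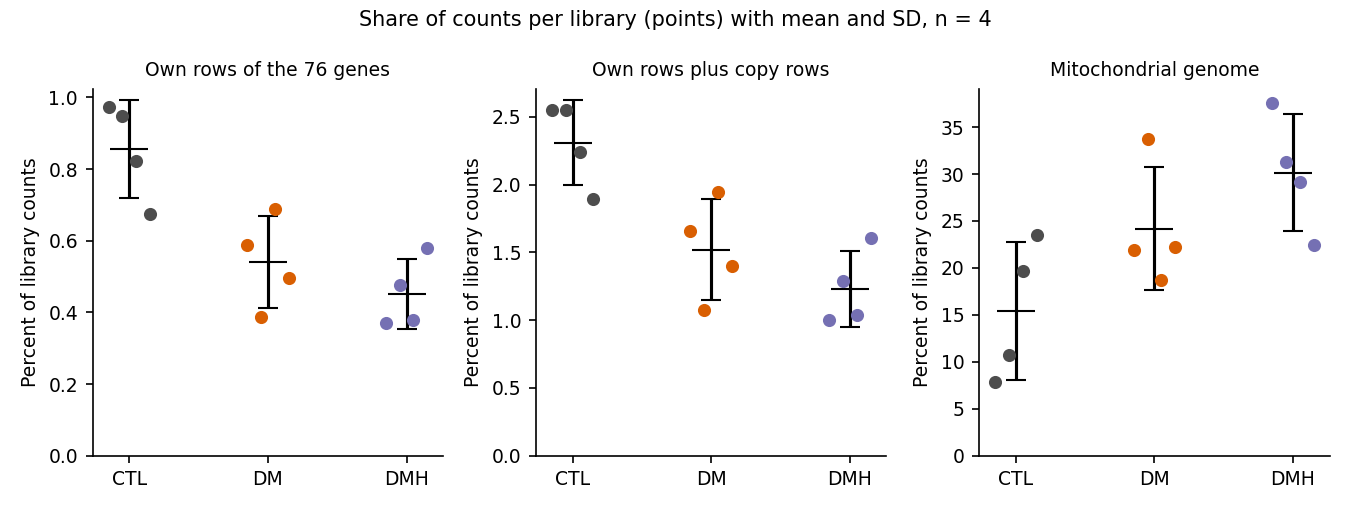
Percent of library counts in the own rows of the 76 ribosomal protein genes, in own plus copy rows, and in genes of the mitochondrial genome, for 4 libraries per group (points) with mean and SD. Both ribosomal shares have their highest mean in CTL (own rows 0.676% to 0.975%), but CTL4 lies below DM3 in both. The mitochondrial share runs from 7.88% to 37.6% and is lowest in CTL1 and CTL2. That of DM3, 18.7%, lies below those of CTL3 and CTL4.

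The summed FPKM of the large subunit genes was 1.57 ± 0.131 times that of the small subunit genes in CTL, 1.54 ± 0.0203 in DM and 1.502 ± 0.0326 in DMH. By summed counts the ratio was 1.18, 1.19 and 1.23, and by the median FPKM of a gene 0.543, 0.549 and 0.667. The first measure is highest in CTL and the other 2 are highest in DMH, so they give the balance of the subunits no common direction. For every member the log2 CPM of each library was set against the member's own mean over the 12 libraries. The mean deviation of the members was 0.57, 0.35, 0.30 and 0.18 in CTL1 to CTL4, -0.22 to -0.02 in DM, and -0.28, -0.18, -0.53 and -0.05 in DMH1 to DMH4. CTL1 was the highest library for 40 of the 76 members and DMH3 the lowest for 40. The matching shares over all tested genes are not given here, so these counts cannot be read as a trait of the members. CTL1 also had the lowest mitochondrial share, at 7.88%, and DMH1 the highest.

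**Figure D2:**
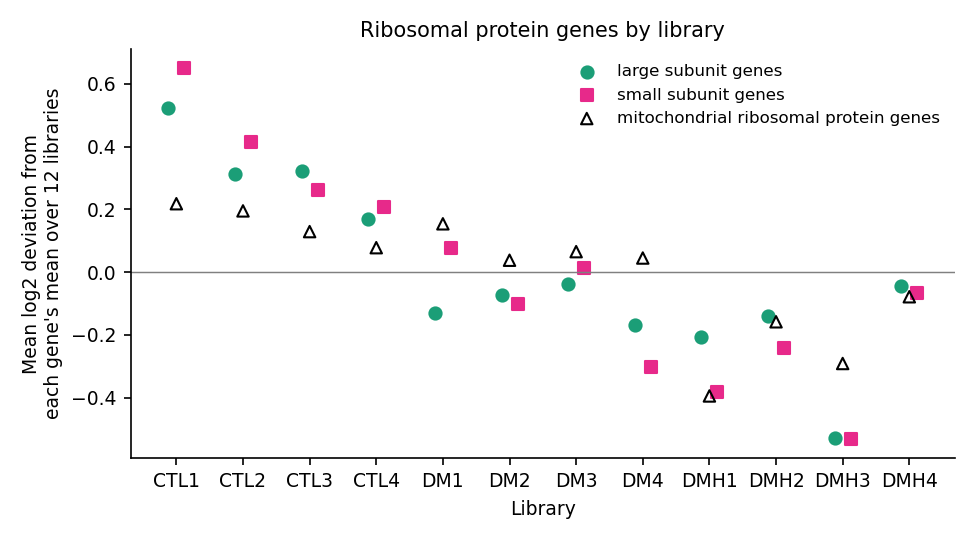
Mean log2 deviation of large subunit genes (circles), small subunit genes (squares) and mitochondrial ribosomal protein genes (triangles) from each gene's mean over 12 libraries, one column per library. All 4 CTL libraries lie above 0 in all 3 sets and DMH3 is lowest for both cytosolic subunits, at about -0.53.

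The first question was how ribosomal protein genes in DM livers stood against CTL. Most fold changes were below 0, but no gene passed the test. The log2 fold change was below 0 for 74 of the 76 members, against 52.4% of all tested genes, with a median of -0.44 for the members, -0.40 for the large and -0.46 for the small subunit, and -0.03 for all genes. None of the 76 passed edgeR's quasi-likelihood test at an adjusted p under 0.05, where 0.219% of all 14643 tested genes did, 0.0683% as lower and 0.15% as higher. At an unadjusted p under 0.05, 33 members were lower and 0 higher (10.4% and 8.43% of all genes), and all 4 DM libraries lay below all 4 CTL libraries for 32 members (7.72% of all genes) and above them for 0 (7.32%). DESeq2 called 9 members lower, against 3.33% of the genes it tested: Rps2, Rpl6, Rps15, Rpl3, Rps3, Rpl13a, Rpsa, Rps9 and Rpl35.

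Rpl3, which lies close to the peptidyl transferase centre, had the lowest fold change, -1.06 ± 0.28 (SE, edgeR adjusted p = 0.102). It was at 83.0, 51.3, 33.2 and 29.0 CPM in CTL and at 24.8, 22.2, 26.8 and 20.3 in DM. The groups do not overlap, but CTL1 is far above CTL4. Rpl6, a large subunit protein, followed at -0.86 ± 0.23, Rplp0, the base of the stalk, at -0.85 ± 0.27, Rpl4, which lines the exit tunnel, at -0.83 ± 0.32, and Rps4x, the X-linked form of a small subunit protein, at -0.79 ± 0.31. The lowest adjusted p of any member was 0.0966, for Rpsa, the laminin receptor protein of the small subunit. Among the genes with few shared words, Rps3 stood at -0.64 ± 0.19, Rpl8 at -0.61 ± 0.20 and Rps19 at -0.31 ± 0.18. The highest values were Rps29 at 0.15 ± 0.26, Rpl15 at 0.10 ± 0.47, Rpl36a at -0.10 ± 0.22, Rpl35a at -0.11 ± 0.18 and Rps13 at -0.13 ± 0.72. That of Rpl15 rests on DM2, which was at 113 CPM where the other DM libraries were at 24.3 to 38.4. Without DM2 its fold change was -0.67.

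The comparison of DMH with DM asked what set the 2 labels apart. No member passed the test, where 0.0341% of all genes did, 0.00683% as lower and 0.0273% as higher. The log2 fold change was below 0 for 54 members (47.5% of all genes), with a median of -0.16 against 0.03 for all genes, -0.12 for the large and -0.31 for the small subunit. At an unadjusted p under 0.05, 10 members were lower and 2 higher, against 10.3% and 10.4% of all genes. The DMH libraries lay wholly below DM for 3 members (7.36% of all genes) and wholly above for 1 (5.67%). The highest were Rpl15 at 0.72 ± 0.47, Rps13 at 0.59 ± 0.72, Rpl27 at 0.55 ± 0.36, Rpl28 at 0.52 ± 0.25 and Rpl17 at 0.51 ± 0.27. The lowest were Rplp2 at -0.63 ± 0.34, Rps7 at -0.61 ± 0.28, Rps15a at -0.60 ± 0.25, Rpl29 at -0.60 ± 0.55 and Rpl7a at -0.59 ± 0.28. Without DMH4, 1 member passed as lower (0.361% of all genes), Rpl19, a tunnel exit protein, at -0.73 (edgeR adjusted p = 0.0497).

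The comparison of DMH with CTL asked how far the DMH liver stood from the control, and here many of the ribosomal protein genes fell. Of the 76, 38 were lower at an adjusted p under 0.05 and 0 were higher, where 8.15% of all tested genes were lower and 7.25% higher. They were 20 of the 46 large subunit and 18 of the 30 small subunit genes. The median log2 fold change was -0.70 for the members, -0.57 for the large and -0.73 for the small subunit, and -0.01 for all genes. The fold change was below 0 for 67 members (50.6% of all genes), and all 4 DMH libraries lay below all 4 CTL libraries for 39 (10.9% of all genes) and above them for 0 (8.64%). DM and DMH were both compared with the same CTL libraries, so the direction the 2 comparisons share is not independent.

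The count depended on single libraries and on the model. It was 21 without CTL1, 15 without CTL2, 16 without DMH1 and 16 without DMH3, where 4.27%, 1.73%, 2.56% and 2.76% of all genes were lower. It was 10 when only these 8 libraries were fitted (1.65% of all genes), and 0 once the mitochondrial percentage entered as a covariate, where 0 of all genes passed. In that last model 20 members were lower at an unadjusted p under 0.05, against 4.92% of all genes.

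**Figure D3:**
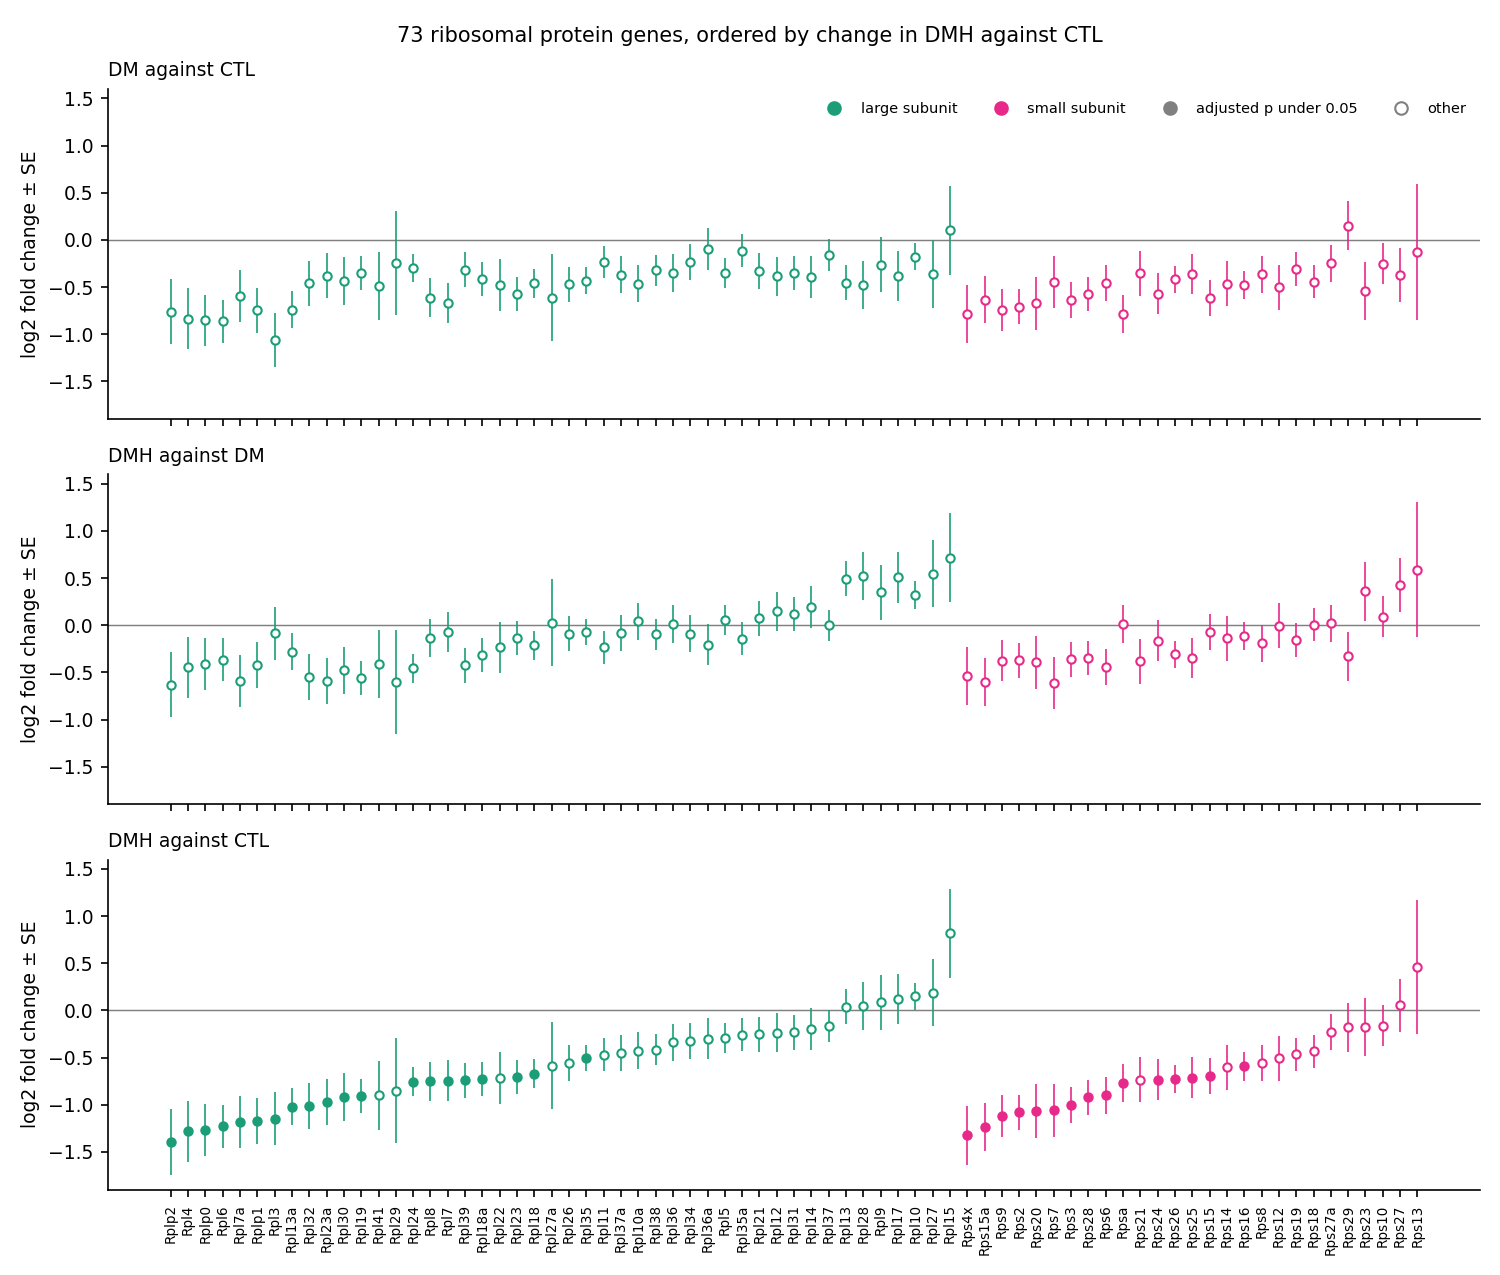
Log2 fold change with its standard error for 73 of the 76 genes in the 3 comparisons, large subunit genes on the left and small subunit genes on the right, ordered by DMH against CTL; filled points had an adjusted p under 0.05. Filled points appear in DMH against CTL only, 35 of them and all below 0, from Rplp2 at -1.39 to Rpl35 at -0.50.

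The 3 genes of the acidic stalk of the large subunit, which recruits and activates the elongation factors, all fell. Rplp2 (ENSMUSG00000025508, chromosome 7, 141447370 to 141451585) had the largest fall of all members. It was at 133, 85.7, 54.7 and 39.8 CPM in CTL, at 54.7, 45.6, 49.2 and 35.2 in DM, and at 17.8, 39.5, 28.3 and 33.6 in DMH. All DMH libraries were below the lowest CTL library, DMH2 by little, and the CTL libraries spread more than 3-fold. Its log2 fold change was -1.39 ± 0.35 (SE, edgeR adjusted p = 0.0238). Rplp0 was at 268, 193, 135 and 108 CPM in CTL and at 58.8, 84.8, 53.0 and 96.8 in DMH, again without overlap, and fell by 1.26 ± 0.28 (adjusted p = 0.0158). Rplp1 was at 571, 369, 370 and 314 CPM in CTL and at 133, 204, 139 and 246 in DMH. It changed by -1.17 ± 0.24 (adjusted p = 0.0140). In each of the 3, DMH4 and DMH2 were nearer to CTL than DMH1 and DMH3.

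Around the peptidyl transferase centre, where peptide bonds form, 2 of 3 genes fell. Rpl3 changed by -1.15 ± 0.28 (edgeR adjusted p = 0.0230). Rpl8 (ENSMUSG00000003970, chromosome 15, 76904078 to 76906314), whose only copy row averaged 0.0819 CPM, changed by -0.75 ± 0.21 (adjusted p = 0.0314). It was at 416, 320, 315 and 302 CPM in CTL and at 196, 242, 131 and 236 in DMH. Rpl10, which joins the large subunit late in its maturation, was at 22.9 to 29.4 CPM in CTL and at 24.8 to 35.0 in DMH, a log2 fold change of 0.15 ± 0.15.

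Of 9 genes around the exit tunnel, 5 fell: Rpl4, Rpl23a, Rpl19, Rpl39 and Rpl35. Rpl4 (ENSMUSG00000032399, chromosome 9, 64173375 to 64178666), whose loop narrows the tunnel, was at 585, 359, 239 and 177 CPM in CTL and at 105, 145, 113 and 196 in DMH. DMH4 was above CTL4, so the groups overlap, and the fold change was -1.28 ± 0.33 (edgeR adjusted p = 0.0245). Rpl39, a small protein of the tunnel wall encoded on X, was at 67.1 to 93.8 CPM in CTL and 36.1 to 58.0 in DMH and changed by -0.74 ± 0.18 (adjusted p = 0.0235). Rpl35 had the smallest change of the 38 called members, -0.50 ± 0.14. Rpl17, at the tunnel exit, was at 6.32 to 9.09 CPM in CTL and 5.59 to 12.2 in DMH, with a fold change of 0.12 ± 0.27. Its own row held 1.70% of own and copy counts. The 5S RNP proteins, which bind MDM2 when free of the ribosome, did not pass: Rpl5 stood at -0.29 ± 0.16 and Rpl11 at -0.47 ± 0.17. Their own rows held 18.9% and 3.402% of own and copy counts, and summed with their copy rows both passed, Rpl5 at -1.55 ± 0.31 (adjusted p = 0.0149) and Rpl11 at -0.65 ± 0.17 (adjusted p = 0.0280).

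In the small subunit, 2 of the 3 genes listed for the mRNA entry site had a row under the listed name, and both fell. Rps3 (ENSMUSG00000030744, chromosome 7, 99477896 to 99483738), which has no pyrimidine run at its printed start, was at 210, 204, 194 and 148 CPM in CTL and at 88.0, 108, 66.9 and 115 in DMH. It changed by -1.002 ± 0.190 (edgeR adjusted p = 0.0120). Rps2 (ENSMUSG00000044533, chromosome 17, 24718116 to 24721929) was at 182 to 261 CPM in CTL, 107 to 138 in DM and 83.1 to 131 in DMH, and changed by -1.08 ± 0.19 (adjusted p = 0.0115), the lowest adjusted p among the members. At the mRNA exit site Rps28 changed by -0.92 ± 0.18, Rpsa by -0.77 ± 0.20 and Rps26 by -0.73 ± 0.15, while Rps14 stood at -0.60 ± 0.24 and did not pass. Near the decoding centre Rps15 changed by -0.69 ± 0.19, and Rps23 at -0.18 ± 0.31 and Rps27a at -0.23 ± 0.20 did not pass. With own rows at 1.18% and 14.3% of own and copy counts, both passed as sums, Rps23 at -1.09 ± 0.22 (edgeR adjusted p = 0.0153) and Rps27a at -0.99 ± 0.26 (adjusted p = 0.0290).

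Other small subunit genes with large falls were Rps4x and Rps15a. Rps4x (ENSMUSG00000031320, chromosome X, 102184941 to 102189394) was at 213, 132, 93.1 and 67.6 CPM in CTL and 41.0, 60.0, 40.5 and 60.7 in DMH, and changed by -1.32 ± 0.31. Rps15a was at 32.7 to 62.3 CPM in CTL and 17.3 to 25.4 in DMH and changed by -1.24 ± 0.25. Rps6, the S6 kinase substrate, was at 48.1 to 87.2 CPM in CTL and 27.6 to 41.1 in DMH and changed by -0.90 ± 0.19. Among the genes with under 50% shared words, Rpl4, Rpl8 and Rps3 fell, and Rps19, whose human form is mutated in Diamond-Blackfan anaemia, stood at -0.47 ± 0.18 (edgeR adjusted p = 0.0888) by its own row and passed as a sum, at -0.75 ± 0.19 (adjusted p = 0.0257).

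The 9 members with a fold change above 0 did not pass the test. They were Rpl15 at 0.82 ± 0.47, Rps13 at 0.46 ± 0.71, Rpl27 at 0.19 ± 0.36, Rpl10, Rpl17, Rpl9 at 0.09 ± 0.29, Rps27 at 0.06 ± 0.28, Rpl28 at 0.05 ± 0.25 and Rpl13 at 0.04 ± 0.18. All but Rpl15 had their own row at 1.55% to 8.37% of own and copy counts. When each member was summed with its copy rows, a choice made after seeing the data, all 76 fold changes were below 0 and 56 members passed, 35 of the 38 and 21 others, where 7.44% of all genes in that fit were lower. Of the 9, the sums of Rpl9 at -1.27, Rps13 at -1.08, Rpl10 at -0.95, Rpl13 at -0.94 and Rps27 at -0.90 passed. Rpl13a and Rpl35 were among those that passed by their own row only. Where the own row is a small part, a sum that passes is largely the value of the copies. Taken alone, the copy rows had a median log2 fold change of -0.86. Of the 257 tested, 141 were lower and 0 higher, against 8.15% and 7.25% of all genes. Among the 22 members whose own row held under 10%, the median fold change was -0.23 by the own row and -0.80 by the sum, and among the 27 at 50% or more it was -0.75 and -0.82.

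**Figure D4:**
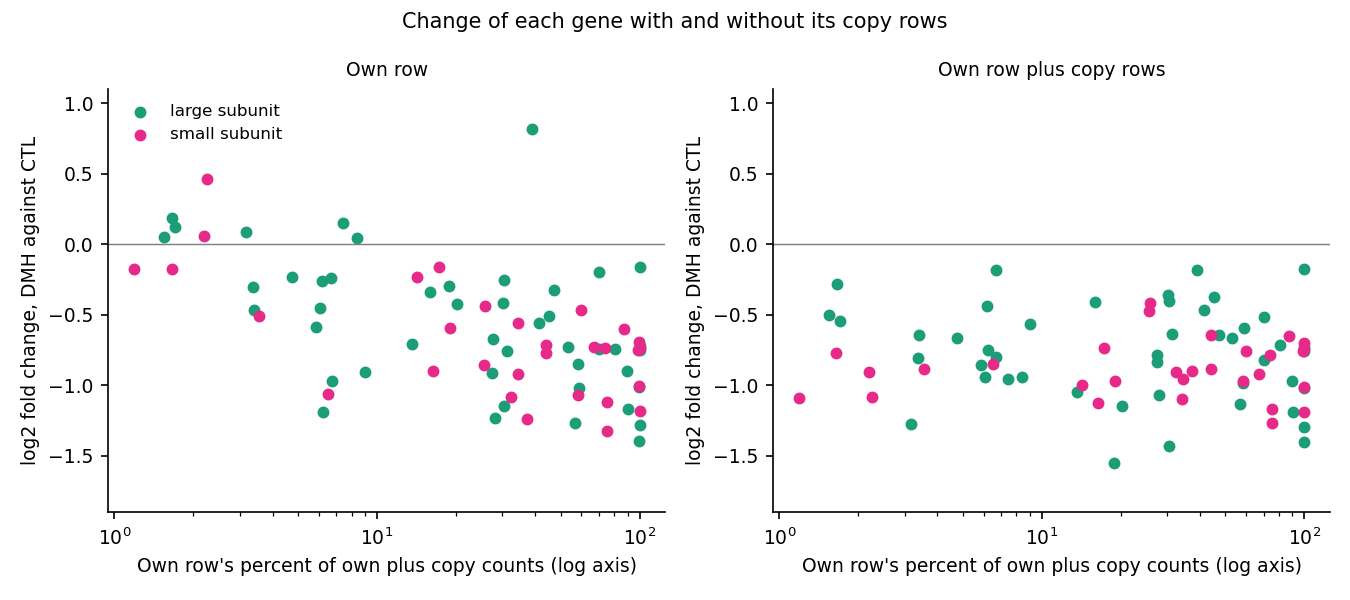
Log2 fold change in DMH against CTL of each ribosomal protein gene by its own row (left) and summed with its copy rows (right), against the own row's percent of own plus copy counts on a log axis. On the left 9 genes lie above 0, 8 of them under 10%; on the right all 76 lie below 0.

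Rpl15, a large subunit protein needed for early pre-60S assembly (ENSMUSG00000012405, chromosome 14, 18267823 to 18271391), was the exception with a substantial own row. It was at 40.9, 36.9, 56.8 and 51.9 CPM in CTL, 24.7, 113, 24.3 and 38.4 in DM, and 104, 108, 74.4 and 41.7 in DMH. The libraries DM2 and DMH1 to DMH3 were above all CTL libraries, and these have the 4 highest mitochondrial shares of the 12, at 33.7%, 37.6%, 31.3% and 29.1%. Once the mitochondrial percentage entered the model, the fold change of Rpl15 in DMH against CTL was -0.62, and with its copy rows added it was -0.18. Its exons overlap Nkiras1, which averaged 37.6 CPM beside 56.7 for Rpl15 on plain library totals; the part of either in this result was not tested.

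Genes of the same pathway were examined from lists, whose counts are to be read beside the 8.15% of all tested genes that were lower and the 7.25% that were higher. Of 15 further genes whose messages carry a TOP motif, 9 fell in DMH against CTL and 0 rose, with a median log2 fold change of -0.75. Eef2, the translocation factor, had the lowest, -1.40 ± 0.30 (edgeR adjusted p = 0.0155), and Eef1a1, which delivers tRNA, changed by -1.04 ± 0.23 from 2024 ± 495 to 987 ± 224 CPM (SD, n = 4 each). The highest was Hnrnpa1 at 0.30 ± 0.34. The fusion gene Fau changed by -0.96 ± 0.19. Of 5 tested paralogs of members, Rpl7l1 at -1.12 ± 0.19 and Rps4l at -1.07 ± 0.25 fell, and the p53 target Rps27l stood at 0.12 ± 0.21.

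Of 34 genes of ribosome assembly, 6 fell and 0 rose, with a median of -0.25: Eif6, Bysl, Nop16, Rsl24d1, Ncl and Ddx21. Eif6, which keeps free large subunits from joining, was lowest at -1.35 ± 0.41, and Rrp9 was highest at 0.62 ± 0.22 without passing. Of 15 genes of mTORC1 and LARP1 signalling, 1 fell and 2 rose, shares near those over all genes, with a median of 0.10. Tsc1, an inhibitor of mTORC1, rose by 1.25 ± 0.36, Rps6kb2, an S6 kinase, rose by 0.88 ± 0.23, and Eif4ebp1, the inhibitor of cap binding, changed by -0.95 ± 0.20. Ddit4 was lowest at -1.61 ± 0.78 without passing. Of 77 tested mitochondrial ribosomal protein genes, 22 fell and 1 rose, with a median of -0.37, from Mrps23 at -1.39 ± 0.28 to Mrpl18 at 0.82 ± 0.25. In DM against CTL no gene of these lists passed the test, and the medians were -0.45 for the TOP genes, -0.14 for assembly and -0.06 for the mitochondrial ribosomal proteins, beside -0.44 for the members.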

How the data were processed

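The authors deposited whole-number read counts and FPKM values per gene for 12 libraries. Per the series' design text, the authors ran FastQC 0.11.8 and Trimmomatic 0.36 on the reads, mapped them to GRCm38 by Hisat2 2.1.0 and took counts from StringTie. No source used here gives the StringTie version, annotation release or strand setting. The deposited FPKM equal the count divided by 1 fixed gene length and the plain library total. Counts were tested with edgeR 4.0.16 in R 4.3.3 (TMM factors, robust quasi-likelihood F test, filterByExpr at a minimum count of 10 and total of 15). All 12 libraries entered 1 model with 9 residual degrees of freedom, and p-values were Benjamini-Hochberg adjusted over 14643 genes. CPM are TMM-scaled, except marker sums and overlapping genes, which use plain totals. Standard errors derive from the fold change and F. Alternatives used DESeq2 1.42.0, limma 3.58.1 on log2(FPKM + 1), other filters, scalings and covariates, and each library left out. The edgeR script was tested on simulated data. The members and gene lists were chosen with earlier results of these data known. Named members were the 6 highest and 6 lowest by FPKM, the 5 highest and 5 lowest fold changes per comparison, called members and members of role groups, and in other lists the extremes and called genes. Copy rows and the sums over them were chosen after seeing the data. Some items are not reported here.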

Additional observations from a re-analysis of the deposited data

Results flagged for a closer look

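In 9 of the 195 groups of 4 values examined over the named members and summary measures, 1 library stood far from the other 3 by Dixon's criterion at 95%; chance marks about 1 group in 20. Among the CTL libraries, Rpl8 was at 416 CPM in CTL1 (others 302 to 320) and Rps24 at 323 in CTL1 (others 179 to 195). Among the DM libraries, Rpl15 was at 113 CPM in DM2 (others 24.3 to 38.4) and Rps2 at 107 in DM2 (others 134 to 138), so that DM2 was high for one gene and low for the other. Rplp1 was at 287 CPM in DM1 (others 224 to 230) and Rps20 at 152 in DM1 (others 62.5 to 75.1). Among the DMH libraries, Rpl19 was at 31.5 CPM in DMH4 (others 18.9 to 20.9), Rpl35a at 28.8 in DMH4 (others 18.3 to 18.7) and Rps19 at 47.5 in DMH3 (others 74.8 to 77.1).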

How the results depend on the processing

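The median log2 fold change of the members was below 0 in all 23 alternatives of each comparison: -0.82 to -0.50 in DMH against CTL, -0.50 to -0.33 in DM against CTL and -0.32 to -0.07 in DMH against DM. In DMH against CTL it was -0.50 with the mitochondrial percentage as a covariate and -0.51 with the trend on gene length removed; with 1 library left out it was -0.74 to -0.53. In DMH against DM it was -0.32 with copy rows summed. Called members in DMH against CTL numbered 15 to 40 with 1 library left out, 10 with 8 libraries, 0 with the mitochondrial covariate, 29 with limma on FPKM, 32 without the low-count filter, and 38 to 40 with other size factors, DESeq2, a strict filter or without mitochondrial genes. In DMH against DM they numbered 0 to 1 with 1 library left out, and in DM against CTL 9 with DESeq2. In DMH against CTL the share of all tested genes called lower also moved, from 8.15% with 12 libraries to 1.65% with 8. For limma, the other filters, other size factors and DESeq2 that share is not given here. Those counts therefore do not tell a change in the members from a change over all genes. Same-numbered libraries did not visibly deviate together (correlations -0.13 to 0.11, 2 of 12 libraries correlating best with their own number). Differently numbered libraries had correlations of -0.14 to 0.13. The labels name no pairing, and these values cannot settle whether there was one. With the replicate number as a block 19 members were called in DMH against CTL and 0 in the other comparisons, again without the share over all genes. Without mitochondrial genes the share of counts was 1.11%, 0.837% and 0.814% in CTL, DM and DMH, with named pseudogenes 1.55%, 0.998% and 0.813%, and with copy rows 2.31%, 1.52% and 1.23%. The subunit ratio was 1.18, 1.19 and 1.23 by summed counts and 0.543, 0.549 and 0.667 by median FPKM.

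Some single genes changed sign; the cause was not tested. In DM against CTL, Rpl15 was -0.17 with the replicate block, -0.29 with limma, -0.97 with the mitochondrial covariate and -0.22 summed with copies. With that covariate Rpl35a was 0.0048 and Rps13 0.25, and Rps29 summed with copies was -0.43. With 1 library left out, Rpl15 ran from -0.67 to 0.34, Rps13 from -0.57 to 0.21 and Rpl36a from -0.17 to 0.000479. In DMH against DM, summing copies gave Rpl17 -0.017, Rpl27 -0.096, Rpl28 -0.083 and Rps13 -0.55, and leaving out 1 library gave Rps13 -0.069 to 1.07. In DMH against CTL, Rpl28 was -0.0059 with the block. With limma, Rpl10 was -0.017, Rpl13 -0.12, Rpl17 -0.077, Rpl28 -0.12, Rpl9 -0.020 and Rps27 -0.061. With the mitochondrial covariate, Rpl10 was -0.12, Rpl13 -0.21, Rpl15 -0.62, Rpl17 -0.62, Rpl27 -0.16, Rpl28 -0.38 and Rps27 -0.14. Summed with copies, Rpl10 was -0.95, Rpl13 -0.94, Rpl15 -0.18, Rpl17 -0.54, Rpl27 -0.28, Rpl28 -0.50, Rpl9 -1.27, Rps13 -1.08 and Rps27 -0.90. With 1 library left out, Rpl13 ran from -0.12 to 0.17, Rpl17 from -0.10 to 0.30, Rpl28 from -0.18 to 0.22, Rps27 from -0.12 to 0.21, Rps13 from -0.18 to 0.79, Rpl9 from -0.035 to 0.30 and Rps23 from -0.50 to 0.033.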
